A study of Homo sapiens with 4 samples.

Results

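The 40 genes described here are keratins of surface epithelia (21 genes) and a class called cornified envelope genes (19 genes). Besides envelope proteins, that class holds the cross-linking enzymes TGM1 and TGM3 and the proteases KLK5 and KLK7. The 40 genes were taken from a list of symbols and found on the array through the RefSeq transcript that each probe set names. All 40 were present among 17185 named genes. Loricrin appears on the list as LOR and in RefSeq as LORICRIN. Each gene had 1 probe set of 3 probes, except KRT18, which had a second set. The cells were KYSE410, an established cell line from a human squamous carcinoma of the oesophagus, kept in RPMI medium with fetal bovine serum and antibiotics. For 24 h they were given PBS, the solvent, or TNFα (tumour necrosis factor α), IL1β (interleukin 1β) or LPS (bacterial lipopolysaccharide), at doses not given in the sources used here. RNA from each of the 4 conditions was labelled with Cy3 and measured on 1 single-colour NimbleGen array. Without replicates the differences below carry no error and no test, and their precision is limited by there being 1 array for each condition.

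Keratins are the intermediate filament proteins of epithelial cells, and each filament is built from a type I and a type II partner. Stratified epithelia make KRT5 with KRT14 and KRT15 in the basal layer. In the layers above, oesophageal mucosa makes KRT4 with KRT13, and skin makes KRT1 with KRT10. Simple epithelia and glands make KRT8 with KRT18, and often KRT7 and KRT19. KRT16 and KRT17 are induced in wounded or hyperproliferative epithelium. As squamous cells mature, soluble precursors such as involucrin, the small proline-rich (SPRR) proteins, loricrin and the cystatins are cross-linked by transglutaminases into an envelope beneath the membrane. Periplakin and envoplakin tie that envelope to desmosomes and keratin filaments.

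The promoters of 4 members are shown because their genes had different values with LPS while the AP-1 motif, the binding letters of a factor active in squamous differentiation, was present in some and absent from others. SPRR1A, SPRR1B and KRT4 were at least 2-fold higher with LPS than with PBS, whereas IVL was not. Each sequence is the stretch of 250 bases before the transcription start in RefSeq (build GRCh38.p14), read on the gene's own strand. Capitals mark the AP-1 letters TGANTCA, which were searched on both strands. The windows lie at chr1:152983831-152984080 (plus strand) for SPRR1A, chr1:153030953-153031202 (plus strand) for SPRR1B, chr1:152908296-152908545 (plus strand) for IVL and chr12:52814117-52814366 (minus strand) for KRT4.
SPRR1A: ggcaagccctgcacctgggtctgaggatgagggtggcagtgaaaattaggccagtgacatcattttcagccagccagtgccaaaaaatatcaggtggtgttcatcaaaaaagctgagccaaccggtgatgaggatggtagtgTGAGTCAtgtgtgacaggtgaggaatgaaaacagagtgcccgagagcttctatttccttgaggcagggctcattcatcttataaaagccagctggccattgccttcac
SPRR1B: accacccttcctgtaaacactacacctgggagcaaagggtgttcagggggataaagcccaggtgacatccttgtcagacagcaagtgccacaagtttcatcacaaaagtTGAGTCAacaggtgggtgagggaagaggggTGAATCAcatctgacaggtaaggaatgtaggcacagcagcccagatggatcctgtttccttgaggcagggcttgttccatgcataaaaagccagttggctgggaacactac
IVL: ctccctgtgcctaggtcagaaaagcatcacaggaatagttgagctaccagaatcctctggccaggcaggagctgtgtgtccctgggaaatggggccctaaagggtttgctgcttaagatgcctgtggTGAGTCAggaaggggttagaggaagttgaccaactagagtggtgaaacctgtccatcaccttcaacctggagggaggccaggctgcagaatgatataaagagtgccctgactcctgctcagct
KRT4: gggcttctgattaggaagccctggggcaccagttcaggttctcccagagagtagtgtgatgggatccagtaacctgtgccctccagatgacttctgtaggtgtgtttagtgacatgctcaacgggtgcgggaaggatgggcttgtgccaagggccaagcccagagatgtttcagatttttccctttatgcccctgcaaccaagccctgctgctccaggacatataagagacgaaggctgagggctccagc
Counted from the start site, the motif began at position -108 in SPRR1A, at -123 in IVL, and at -141 and -111 in SPRR1B, and it was not found in the KRT4 window.

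The RefSeq promoter table held 23 of the 40 members, with windows from 250 bases before the start to 50 after it. TGANTCA was present in 9 of the 14 cornified envelope promoters (SPRR1A, SPRR1B, SPRR2A, SPRR3, IVL, LORICRIN, FLG, CRNN and SCEL) and in 0 of the 9 keratin promoters, against 7.76% of 27305 promoters of that length. A TATAAA stretch, on either strand, was present in 11 of the 23 against 12% of all promoters, and the NF-κB consensus in 2 (CNFN and KLK7) against 10.8%. Of the 8 members higher with LPS only 3 had a window, SPRR1A and SPRR1B with the AP-1 letters and KRT4 without them. Among the other members with the letters, SPRR2A was above PBS with LPS by 0.73 log2. SPRR3 and LORICRIN, both under the floor, were above PBS by 0.74 and 2.08. IVL and CRNN were dimmest on the LPS array, and FLG and SCEL were near background throughout. A link between the letters and the values was not tested. A match of letters is a description of the window and says nothing of binding.

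A member was counted as higher or lower if its values on 2 arrays were 2-fold or more apart (a log2 difference of 1) and the brighter of them reached a floor. The floor was 260 (8.02 on the log2 scale), the median over named genes of their mean log2 RMA intensity. RMA intensities are fluorescence values after robust multi-array averaging, and median intensities of the arrays lay between 245 and 260. A value was taken as near background at or below 2 times the random-sequence control set of its array, a limit of 108 to 113. Of the 40 members 26 were at the floor on all 4 arrays, and KRT80, SPRR1A and TGM3 on some. KRT20, KRT23, SPRR3, LORICRIN and KLK7 stayed under it without being near background throughout, and 6 members were near background on every array, namely the epidermal keratins KRT1, KRT2 and KRT9, filaggrin (FLG), the protease KLK5 and sciellin (SCEL).

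Markers of the labelled cell type and of others are given first. All 12 squamous epithelial markers, of which 5 are members (KRT5, KRT14, KRT13, KRT4 and IVL), were at the floor on each array, and their summed intensity was 121816 (PBS), 159747 (TNFα), 135208 (IL1β) and 175500 (LPS). Transcripts foreign to an epithelial line were present too, and they differed between arrays. Of 15 cardiac muscle markers 11 were at the floor with PBS, TNFα and IL1β and 7 with LPS, with sums of 44369, 58848, 65222 and 16935. MYH6, a myosin heavy chain of heart muscle, had 9469.8 with PBS and a near-background 81.3 with LPS. Against PBS, 7 of the 11 cardiac markers at the floor were lower with LPS and 0 higher, beside 7.42% and 8.83% of all genes. Of 14 leukocyte markers 4 were at the floor with PBS, 7 with each cytokine and 1 with LPS, with sums of 9813, 12583, 15337 and 1884. Against PBS, 2 of 7 leukocyte markers at the floor were higher with TNFα and 4 of 8 with IL1β, beside 3.37% and 3.13% of all genes. These higher markers passed the floor only through the cytokine arrays. With LPS 0 of 4 were higher and 3 lower, beside 8.83% and 7.42% of all genes. PTPRC (CD45) was near background with PBS and LPS. The 12 fibroblast markers summed to between 1901 and 2098, and COL6A3, LUM, FAP and THY1 were near background on all 4 arrays. Within that list COL5A1 was 7.93-fold higher with LPS than with PBS (880 against 111) and COL1A2 3.11-fold lower (236.7 against 735.7). The part of these cardiac, leukocyte and fibroblast differences in the members' values was not tested. In bulk RNA, fewer cells of a type and less RNA per cell cannot be told apart.

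**Figure D1:**
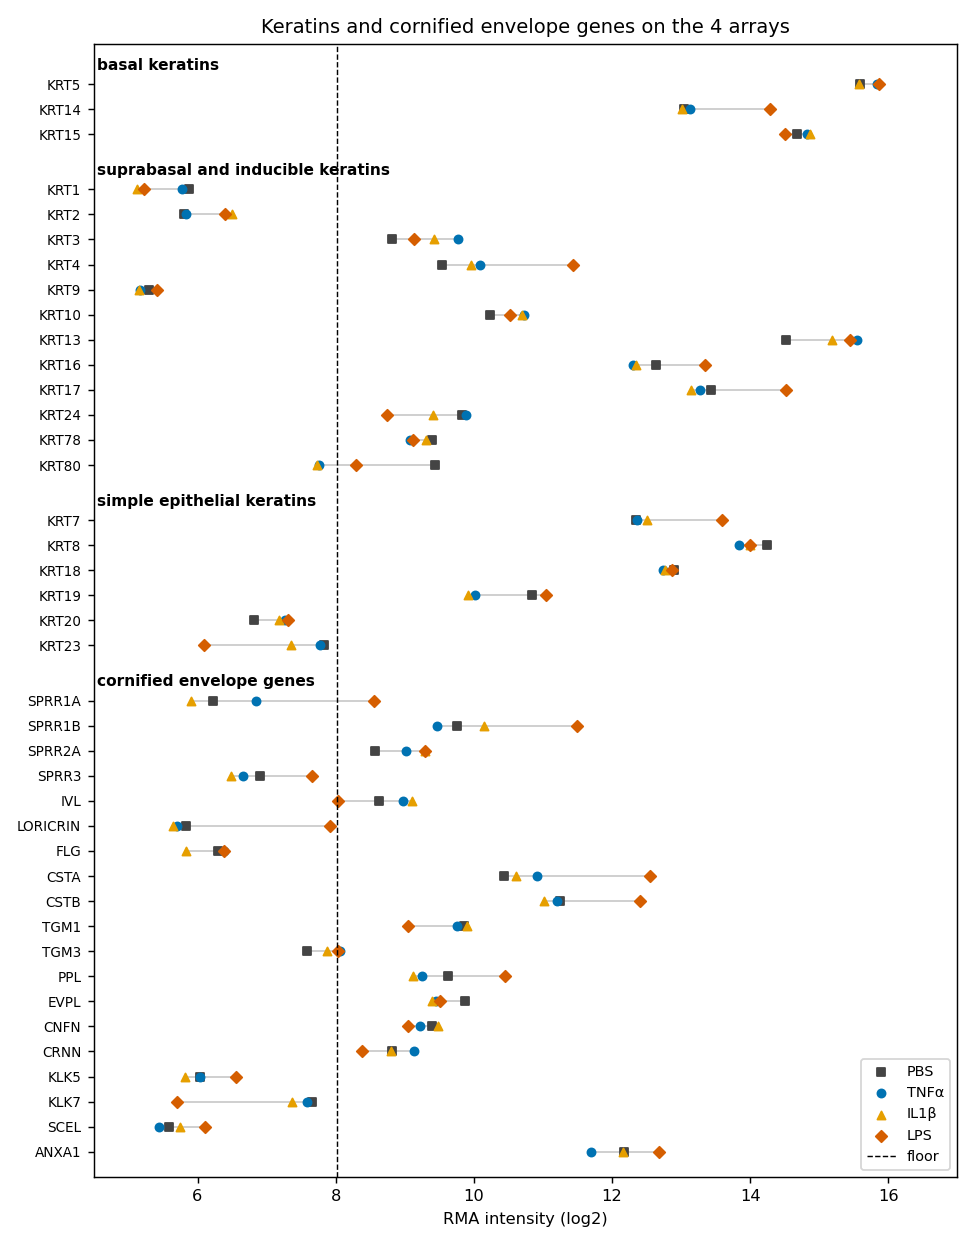
Log2 RMA intensity of each of the 40 members (rows, grouped by class) on the PBS, TNFα, IL1β and LPS arrays (1 array each, 1 symbol per array), with the floor of 8.02 as a dashed line. The LPS symbol stands at least 1 log2 unit to the right of the other 3 for KRT14, KRT4, KRT17, KRT7, SPRR1A, SPRR1B, CSTA and CSTB, and the PBS symbol does so for KRT80. Distances between rows also depend on the probes, so only positions within a row are comparable.

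With the cytokines nearly all members lay within 2-fold of PBS, as did nearly all genes at the floor. With LPS 4 keratins and 4 envelope genes were higher and 2 keratins lower. With TNFα 1 of 28 members at the floor was higher (KRT13) and 1 lower (KRT80), where 3.37% of all 9419 genes at the floor were higher and 3.4% lower. With IL1β 0 of 27 were higher and 1 lower (KRT80 again), against 3.13% higher and 3.57% lower of 9427 genes. With LPS 8 of 29 were higher and 2 lower, against 8.83% higher and 7.42% lower of 9675 genes. The share of members higher with LPS was 27.6%, and the share lower was 6.9%, near its background. The cardiac and leukocyte sums were lower with LPS, and their part in these counts was not tested. The squamous sum was higher with LPS, but it includes the members KRT5, KRT14, KRT13, KRT4 and IVL. Since KRT14 and KRT4 are among the members counted as higher, that sum is not separate from these counts. Median log2 differences from PBS over the members at the floor were 0.31 for LPS, -0.01 for TNFα and -0.02 for IL1β, beside 0.05, -0.07 and -0.05 over all genes at the floor. SPRR1A and TGM3 passed the floor only through treated arrays and KRT80 through the PBS and LPS arrays. These 3 comparisons share the PBS array.

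Because of that shared array, each array was also set against the other 3. The LPS array was at least 2-fold above every other array for 8 of 29 members, the same 8 that were higher than with PBS, and below every other for 0 of 29. Over 10271 genes these shares were 4.04% and 2.82%. The PBS array was above every other for 1 member, KRT80, and below for 0, beside 1.05% and 0.935% of all genes. No member met the rule on the TNFα array (0.458% of genes above and 0.224% below) or on the IL1β array (0.351% and 0.37%). The LPS array was the brightest of the 4 for 13 of 29 members, a share of 44.8% against 38.8% of all genes, and the dimmest for 6, a share of 20.7% against 31.1%.

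No replicate spread exists to judge these sizes, but 2 descriptions of scatter were available. The TNFα and IL1β arrays differed with an SD of 0.27 log2 over the 27 members whose mean reached the floor (0.37 over 8593 genes), and at most by 0.69, for SPRR1B. This was the closest pair of arrays. The LPS and PBS arrays differed with an SD of 0.89 over the same members and 0.72 over the 8593 genes. LPS against TNFα gave 0.86 and 0.71, and LPS against IL1β 0.83 and 0.72. Where a gene of any kind had 2 probe sets at the floor, their LPS minus PBS log2 differences disagreed with an SD of 0.70 (622 genes). KRT18 was the only member with a second set, and its sets gave LPS minus PBS differences near 0 (-0.02 for the brighter set) and TNFα minus PBS differences of -0.16 and -0.18.

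**Figure D2:**
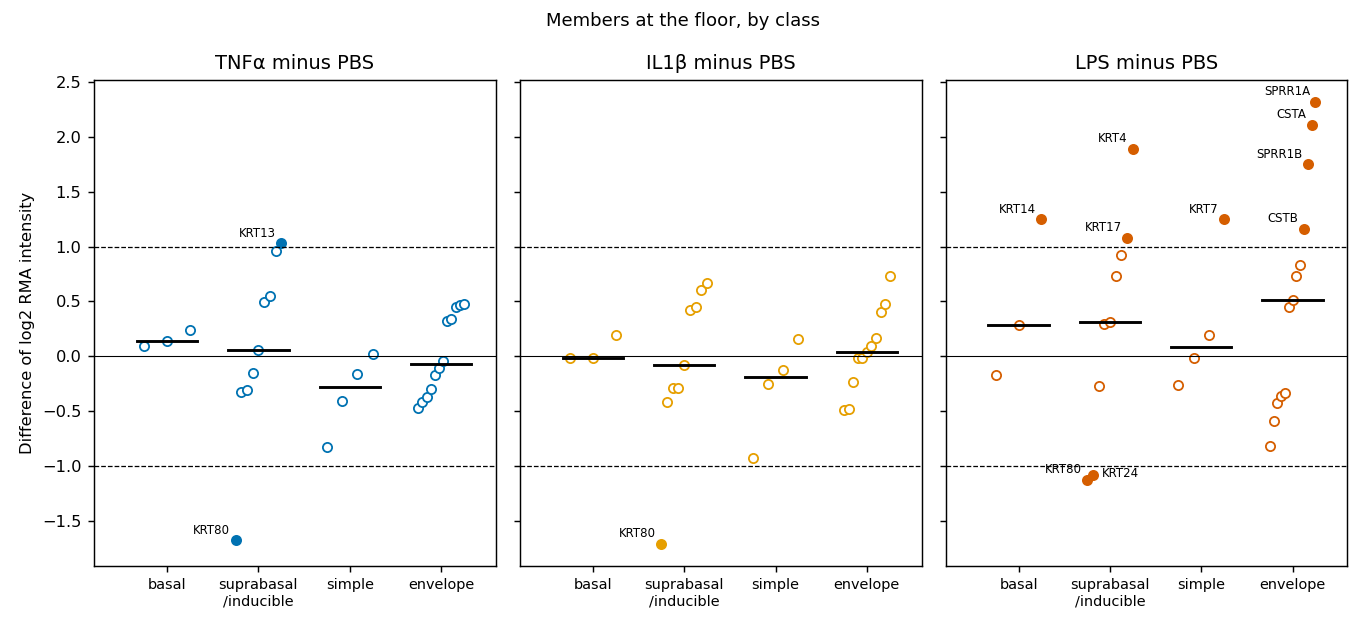
Difference of log2 RMA intensity from the PBS array for members with the brighter value at the floor, by class, for TNFα, IL1β and LPS. Each point is 1 gene from 1 array against 1 array, filled and named where it met the 2-fold rule (dashed lines at -1 and 1), and the black bars are class medians. Filled points are KRT13 and KRT80 with TNFα, KRT80 with IL1β, and 8 higher and 2 lower genes with LPS.

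All 3 basal keratins were at the floor on every array, and KRT14 alone met the rule. KRT14, the type I partner of the basal filament, had intensities of 8406 (PBS), 8978 (TNFα), 8297 (IL1β) and 20039 (LPS). The LPS value stood 2.38-fold above PBS, and the other 3 lay close together. KRT5, its type II partner, had 49361, 58314, 48523 and 59819.7 in the same order, a range of 0.30 log2. The order of the arrays was the same for both partners, but KRT5 was only 0.28 log2 higher with LPS than with PBS. KRT5 was the brightest member on every array. Whether a limit of the scale at such intensities narrowed its differences was not tested. KRT15, a type I keratin of basal and progenitor cells, had 26218, 28894, 29999.6 and 23303 and was dimmest with LPS, at a log2 difference from PBS of -0.17.

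Among suprabasal and inducible keratins 9 of 12 reached the floor. KRT4, the type II keratin of the oesophageal suprabasal layers, had 745 (PBS), 1089 (TNFα), 996.5 (IL1β) and 2760.5 (LPS). It was 3.71-fold higher with LPS than with PBS, and the LPS value was also 1.34 log2 above the next array. KRT13, the type I partner of KRT4, had 23485 (PBS), 47862 (TNFα), 37468 (IL1β) and 44438 (LPS). Here all 3 treated arrays were above PBS, by log2 differences of 1.03, 0.67 and 0.92, and only TNFα (2.04-fold) passed the threshold. PBS was the dimmest array for both partners. They differed in that KRT4 had LPS far above the rest, while the 3 treated values of KRT13 lay closer together. KRT3, the corneal type II keratin, lay just outside the threshold with TNFα, at 1.94-fold, and its intensities were 449.9, 873.6, 683.9 and 559.4 in the order PBS, TNFα, IL1β, LPS.

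KRT17, an inducible type I keratin of activated epithelium, had 11053 (PBS), 9953 (TNFα), 9044 (IL1β) and 23425 (LPS), 2.12-fold higher than PBS. KRT16, which is likewise induced on activation, had 6336, 5028, 5179.6 and 10477 in the same order. Both were brightest with LPS, and both had cytokine values below PBS, but KRT16 stayed under the threshold at a log2 difference of 0.73. KRT14, KRT16 and KRT17 are close relatives with near-identical stretches and pseudogene copies, and the probe sequences were not used here, so signal shared between their probe sets was not tested. KRT10, which accompanies epidermal maturation, differed from PBS by 0.49 with TNFα, 0.45 with IL1β and 0.29 with LPS on the log2 scale. KRT78 differed by -0.31, -0.08 and -0.27.

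KRT24 and KRT80 were the lower members. KRT24, a type I keratin linked to differentiating keratinocytes, had 910.6 (PBS), 950.4 (TNFα), 680.7 (IL1β) and 430.9 (LPS). It was 2.11-fold lower with LPS than with PBS, just past the threshold, and its log2 difference from the mean of the cytokine arrays was -0.90, just short of it. KRT80, a type II keratin found near cell margins, had 693.2 (PBS), 216.7 (TNFα), 211.7 (IL1β) and 315.7 (LPS). The PBS array alone was high, and the treated arrays were 3.2-fold, 3.27-fold and 2.2-fold lower. Against the mean of the cytokine arrays the LPS value of KRT80 was higher, at 0.56 log2, so its lower value with LPS rests on the PBS array.

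Simple epithelial keratins were led by KRT7, a type II keratin of glandular and transitional epithelia. It had 5172 (PBS), 5241 (TNFα), 5781 (IL1β) and 12341 (LPS), 2.39-fold higher with LPS. KRT8 had 19464.5, 14682, 16379.6 and 16219.5 in the same order, and its partner KRT18 had 7631, 6849, 6977 and 7504. Both were brightest with PBS and ranged over 0.41 and 0.16 log2 across the 4 arrays. KRT19, a small type I keratin without a tail domain, had 1835, 1032, 961.1 and 2099. Both cytokine arrays were below PBS and LPS, by log2 differences from PBS of -0.83 and -0.93, short of 2-fold. KRT23 stayed under the floor, at 226.9 with PBS and 68.6 with LPS, a near-background value that puts it at least 2.01-fold lower. KRT20, the intestinal keratin, was between 113.2 and 158.5.

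Envelope precursors and cystatins made up 4 of the 8 higher members. CSTA, cystatin A, a cysteine protease inhibitor cross-linked into the envelope, had 1386 (PBS), 1928 (TNFα), 1564 (IL1β) and 6002 (LPS). It was 4.33-fold higher with LPS than with PBS, and the LPS value stood 1.64 log2 above the next array. CSTB, cystatin B, a related inhibitor found in most cells, had 2432, 2363, 2063.5 and 5429, 2.23-fold higher with LPS. Both cystatins were brightest with LPS, while PBS was the dimmest array for CSTA and IL1β for CSTB.

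SPRR1B, a small proline-rich envelope precursor, had 862.2 (PBS), 702.7 (TNFα), 1135 (IL1β) and 2897 (LPS), 3.36-fold higher with LPS. SPRR1A had 75.1, 115, 60.2 and 375.7, and since its PBS value was near background it was at least 3.47-fold higher. SPRR1A and SPRR1B are close copies of each other, and whether their probe sets share signal was not tested. SPRR2A had 380.8, 518.6, 632.4 and 632 and was higher than PBS on all 3 treated arrays without reaching 2-fold (log2 differences of 0.45, 0.73 and 0.73). SPRR3, an oesophageal family member, stayed under the floor, at 119.8, 101.3, 89.5 and 200.6, again brightest with LPS. LORICRIN, the main precursor in skin, had 57.3, 52.2, 50.4 and 242.3. It was near background except with LPS, where it was at least 2.24-fold above PBS yet just under the floor, so it was not counted.

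Another 4 of the 13 envelope genes at the floor were dimmest with LPS, a share of 30.8% beside 31.1% of all genes. TGM1, the membrane-bound transglutaminase that cross-links the envelope, had 929.2 (PBS), 860.5 (TNFα), 956.4 (IL1β) and 526.4 (LPS). IVL, involucrin, the early scaffold of the envelope, had 396, 502.5, 551.1 and 263.8. Their LPS minus PBS log2 differences were -0.82 and -0.59, short of 2-fold. Cornulin (CRNN) and cornifelin (CNFN) were dimmest with LPS as well, at -0.43 and -0.34. TGM3, a soluble transglutaminase, differed from PBS by 0.47 with TNFα, 0.30 with IL1β and 0.45 with LPS and was close to the floor on every array. KLK7, a protease that sheds cornified cells, stayed under the floor, at 201.9, 191.8 and 165.5 with PBS, TNFα and IL1β and near background at 51.9 with LPS, at least 1.79-fold lower than PBS.

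The plakins differed from each other. PPL, periplakin, had 784.8 (PBS), 607.2 (TNFα), 558 (IL1β) and 1396 (LPS), brightest with LPS at a log2 difference of 0.83. EVPL, envoplakin, its binding partner, had 935.6, 697.4, 671.8 and 731.1, with all treated arrays below PBS by 0.36 to 0.48 (LPS -0.36, TNFα -0.42, IL1β -0.48). ANXA1, annexin A1, a phospholipid-binding protein of the envelope, had 4629.9, 3336, 4577 and 6575. None of these 3 reached 2-fold from PBS. In the envelope class as a whole 6 of 13 members at the floor were brightest with LPS (46.2%) and 4 dimmest (30.8%). Over all genes these shares were 38.8% and 31.1%. The class median for LPS minus PBS was 0.51.

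Class medians of LPS minus PBS were 0.28 for 3 basal, 0.31 for 9 suprabasal and inducible and 0.09 for 4 simple keratins at the floor. With TNFα they were 0.14, 0.06 and -0.28, and -0.08 for 12 envelope genes. With IL1β they were -0.02, -0.08 and -0.19, and 0.04 for 11 envelope genes. Higher with LPS were 1 of 3 basal, 2 of 9 suprabasal and inducible, 1 of 4 simple and 4 of 13 envelope genes, beside 8.83% of all genes, and the 2 lower members were both suprabasal. The basal and simple counts rest on 1 gene each.

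Genes of the same pathway outside the 40 were described from further lists. Of 55 measured cornification genes (58 listed) 25 reached the floor with PBS or LPS, of which 6 were higher and 1 lower, beside 8.83% and 7.42% of all genes. All 6 passed the floor only through the LPS array. KLK10, a kallikrein protease, was at least 5.21-fold higher on the LPS array (563.5) than on the PBS array (107), and SPINK5, an inhibitor of kallikreins, had 164.2 and 597.3, 3.64-fold higher. RHCG, an ammonium transporter of squamous mucosa, was 3.35-fold and SPRR2F 2.59-fold higher. KLK6, another kallikrein, was 3.81-fold lower. The list's median with LPS was 0.15, and -0.20 over the 18 genes at the floor with PBS. With TNFα 0 of 18 were higher and 0 lower (median 0.00), beside 3.37% and 3.4% of all genes. With IL1β 1 of 20 was higher, SPRR2F (2.14-fold), and 0 lower (median 0.07), beside 3.13% and 3.57% of all genes.

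Of 17 other keratins of stratified epithelia 10 reached the floor. With LPS 0 were higher and 1 lower, the palate and gum keratin KRT76 (2.13-fold), beside 8.83% and 7.42% of all genes. KRT6A, KRT6B and KRT6C, the type II partners of KRT16 and KRT17, had LPS minus PBS log2 differences of 0.45, 0.27 and 0.18, short of 2-fold. They are near-identical genes whose probe sets may share signal, which was not tested. A limit of the scale at their bright values (37635, 25955 and 38745 with PBS) was not tested either. The list had 0 higher and 0 lower with TNFα and with IL1β, where each such share over all genes was 3.13% to 3.57%. Its medians were 0.17 for TNFα, 0.02 for IL1β and -0.06 for LPS.

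Hair keratins, which oesophagus is not known for, were listed as a reference. Of 15 measured (17 listed) 9 reached the floor with PBS or LPS. With LPS 4 of these 9 were higher, KRT39 (at least 4.64-fold), KRT38 (2.86-fold), KRT31 (2.21-fold) and KRT33A (2.17-fold), and 1 was lower, KRT81 (2.01-fold). Over all genes these shares were 8.83% and 7.42%. KRT39, KRT31 and KRT33A passed the floor only through the LPS array. The median with LPS was 0.88 over these 9 and 0.12 over the 6 at the floor with PBS. With TNFα 1 of 6 was lower, KRT81 (2.20-fold), and with IL1β 2 of 6, KRT81 and KRT83 (each 2.08-fold). Over all genes 3.4% and 3.57% were lower. With TNFα and IL1β 0 were higher, beside 3.37% and 3.13% of all genes, at medians of 0.02 and 0.05. KRT81 had 428.1 with PBS and 194.8 to 212.9 on the treated arrays, high with PBS alone like KRT80. Of 12 genes that bind keratin filaments or link them to membranes 11 reached the floor with PBS or LPS. With LPS 0 were higher and 1 lower, the adaptor TRADD (2.53-fold), beside 8.83% and 7.42% of all genes. With TNFα and with IL1β 0 of 10 were higher and 0 lower, where each such share over all genes was 3.13% to 3.57%. That list had a median of -0.12 for LPS, and of 0.02 for TNFα and -0.05 for IL1β.

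Most members lie in 3 gene clusters, the type I keratins on chromosome 17, the type II keratins on chromosome 12 and the epidermal differentiation complex on chromosome 1. In the type I cluster 6 of 25 genes at the floor were higher with LPS and 1 lower, beside 8.83% and 7.42% of all genes. Of the 6, the hair keratins KRT39, KRT31 and KRT33A passed the floor only through the LPS array. KRT14, KRT16 and KRT17 stand next to each other at its end, and KRT15 and KRT19 a few genes before them differed from PBS by -0.17 and 0.19. In the type II cluster 2 of 19 were higher with LPS, KRT4 and KRT7, and 3 lower, KRT80, KRT81 and KRT76. Shares over all genes were again 8.83% and 7.42%, and the higher count was near that background. KRT80, KRT7 and KRT81 are consecutive measured genes, and KRT7, between 2 genes that were high with PBS alone, had the opposite sign with LPS. In the epidermal differentiation complex 8 of 26 were higher with LPS and 0 lower, beside 8.83% and 7.42% of all genes. SPRR1A and SPRR2F of the 8 passed the floor only through the LPS array. The 8 were SPRR1A, SPRR1B, SPRR2F and S100 genes at both ends (S100A10, S100A2, S100A16, S100A14 and S100A13). With TNFα 3 of 25 were higher (S100A8, S100A9 and S100A12) and 0 lower, beside 3.37% and 3.4% of all genes. With IL1β 3 of 28 were higher (S100A8, S100A9 and SPRR2F) and 1 lower (S100A4), beside 3.13% and 3.57%. S100A8, S100A12 and SPRR2F passed the floor in these comparisons only through the cytokine arrays. None of the genes named for the cytokines was a member.

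**Figure D3:**
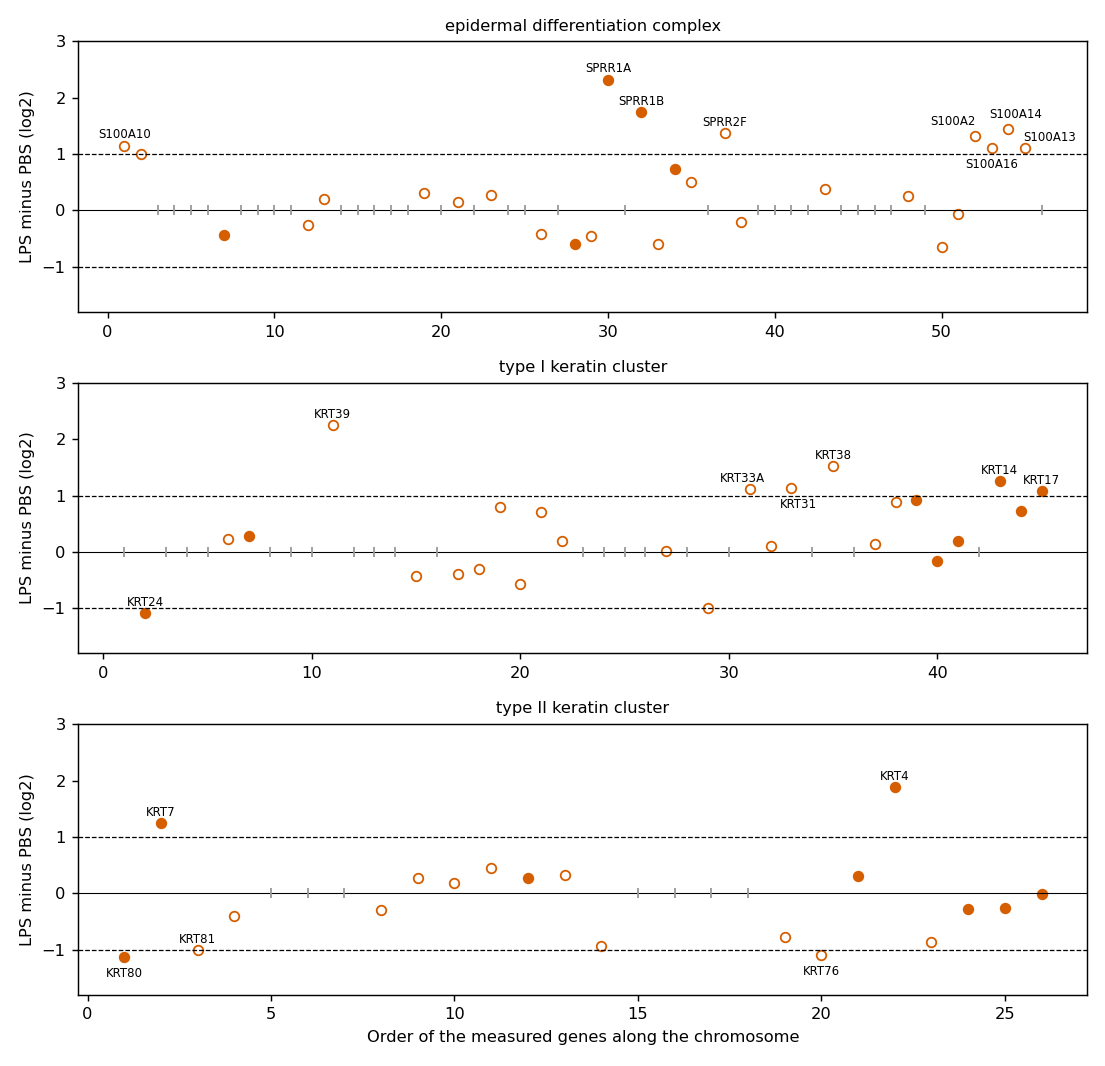
LPS minus PBS difference of log2 RMA intensity for the measured genes of 3 clusters, in chromosome order (the x axis counts genes, not distance). Filled circles are members, open circles other genes, grey ticks genes under the floor on both arrays, and named points met the 2-fold rule (dashed lines at -1 and 1). Higher genes in the epidermal differentiation complex include SPRR1A and SPRR1B and lie in separate stretches.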

How the data were processed

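RNA of KYSE410 cells from 4 conditions was measured on 1 array each. The authors deposited 1 linear RMA intensity for every probe set (file headers); which software, settings and genome build they used is not given in the sources used here. RMA usually equalises the arrays' distributions, so differences are relative to most genes. The authors' series table held identical values for all 45033 probe sets. Of these, 18866 matched 1 RefSeq symbol (GRCh38.p14, names only) by unversioned transcript, giving 17185 genes; a gene took its probe set of highest mean log2 intensity.

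Differences are log2 values of 2 arrays, with no test. Members and lists were chosen with earlier results of these data known. Members at least 2-fold different at the floor, or apart from all other arrays, were given on all 4 arrays; other members by range, count or role. The rule for each further list was up to 4 genes past the threshold, by size. Genes named beyond it (SPRR2F, KRT33A, KRT83, the KRT6 genes, COL6A3, LUM, FAP, THY1 and the S100 genes) were chosen after their values were seen. A fold against a near-background value is computed against 2 times the random control set (5000 probes) and written "at least". Counting by this rule was first tested on simulated data. Promoter motifs were chosen after the data were seen. Tried instead were the mean of probe sets, dropping the floor or raising it to the 75th percentile, loess centring (span 0.3), repeated quantile normalization, an offset of 50.9 (10th percentile), thresholds of 1.5-fold and 3-fold, the series table and, added after seeing the data, LPS against the mean of the cytokine arrays. Scripts ran under Python 3.11.15 with pandas 2.3.3, numpy 2.4.6, matplotlib 3.10.9 and, for loess, statsmodels 0.14.6.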

Additional observations from a re-analysis of the deposited data

How the results depend on the processing

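With 1 array per condition no replicate could be left out. Counts were taken as moved beyond 1.5 times and medians beyond 0.1 log2. Of 243 values under the alternatives 213 did not move, and 94 of 101 differences of single members kept their direction and side of the threshold. These totals include the series table, which held identical values and could move nothing. They also include the mean of probe sets, which among the members could alter the values of KRT18 only. The count of 8 members higher with LPS ran from 7 to 12 under every alternative except the 3-fold threshold. That range includes 11 against the mean of the cytokine arrays, which is not a comparison with PBS. The 3-fold threshold gave 4 (KRT4, SPRR1A, SPRR1B and CSTA) for higher than PBS and 2 (SPRR1A and CSTA) for above every other array. Repeated quantile normalization took KRT7 out of the 8 members above every other array. Shares over all genes under the alternatives are not given here, so these counts have no background beside them. Counts of lower members were small and moved more. Lower with LPS were 4 without a floor (KRT23 and KLK7 added, both then below every other array, a count of 2), 1 with the 75th percentile floor (without KRT80), 1 with the offset (without KRT24), 4 at 1.5-fold (IVL and TGM1 added), 0 at 3-fold and 0 against the mean of the cytokine arrays, where KRT80 changed sign to 0.56. At 1.5-fold 3 members (KRT24, IVL and TGM1) were below every other array with LPS, and 1 (KRT13) with PBS. The 75th percentile floor gave 0 lower members with TNFα, 0 with IL1β and 0 above the others with PBS, because KRT80 fell out, and 3-fold also gave 0 for PBS. Higher with TNFα were 2 with loess and 2 at 1.5-fold (KRT3 added) and 0 at 3-fold; lower were 2 at 1.5-fold (KRT19 added). With IL1β 1.5-fold gave 3 higher (KRT3, KRT13 and SPRR2A) and 2 lower. The LPS median of 0.31 was 0.62 with the 75th percentile floor and 0.14 against the cytokine arrays. Where no reason is given the cause was not tested. Values near background limit SPRR1A, LORICRIN, KRT23 and KLK7 to bounds.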
